A study of Rattus norvegicus with 42 samples.

Results

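The nuclear-encoded subunits of oxidative phosphorylation were followed in the hippocampus of rat pups given a single dose of an anti-seizure medication. Members were all transcripts whose symbol begins with Nduf, Uqcr, Atp5 or Cox4 to Cox8, together with Sdha, Sdhb, Sdhc and Sdhd. This rule used names only and found 95 transcripts of 88 genes among the 15516 transcripts of 14304 genes in the count table. Sprague Dawley male pups received 1 i.p. injection at P7 of saline as vehicle (VEH), of phenobarbital at 75 mg/kg (PB), or of levetiracetam at 200 mg/kg (LEV). Hippocampal RNA was taken 72 h later, at P10. Each litter gave 1 pup to each treatment for sequencing, and none of the animals carried an engineered allele. After removal of 1 VEH animal that the study had left out for its coverage, 13 VEH, 14 PB and 14 LEV animals remained. Animals 1 to 6 of each group carried sample codes of 2 letters and animals 7 to 14 a code of 1 letter. These forms are called series here, with 6 animals of every group in the 2-letter series and 7 VEH, 8 PB and 8 LEV in the 1-letter series. The pups came in 2 orders, but the sources do not say whether the form of the code follows the order.

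Oxidative phosphorylation makes most of the ATP of a neuron. Complexes I and II of the inner mitochondrial membrane take electrons from NADH and succinate, complex III passes them to cytochrome c, and complex IV hands them to oxygen. Complexes I, III and IV pump protons, and complex V, the ATP synthase, uses the proton gradient to make ATP. A few subunits are encoded by mitochondrial DNA and were not analysed here. The hippocampus is a mixture of neurons, glia and vessels, so in bulk RNA fewer cells of a type and less RNA per cell cannot be told apart.

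Complex I was covered by 37 member transcripts, complex II by 4, complex III by 9, complex IV by 16 and complex V by 18. A further 8 were Ndufaf assembly factors of complex I, 2 were Ndufa4 and Ndufa4l2, and 1 was Atp5if1, the inhibitor of the ATP synthase. Symbols with 2 rows numbered 7, and both rows of Ndufa1 held equal counts and stand for the same reads. The 2 rows of Atp5pb carry the same transcript name at 2 places on chromosome 2, and both are counted in complex V. In each of them 10 of 14 PB animals were below the VEH average of their series. Whether they share reads was not tested. Of the 95 transcripts, 92 were abundant enough to test over both series, 92 in the 2-letter series and 91 in the 1-letter series. The liver-type and muscle-type pair of complex IV subunit VIII was split, with Cox8a abundant and Cox8b at 0 to 3.92 normalized counts in every animal.

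The libraries held 9499492 to 14488134 estimated counts each, with a median of 11319144, and the members took 1.01 to 1.30% of them. The median share was 1.17% in VEH, 1.11% in PB and 1.20% in LEV. VEH animal 1, labelled male, had 1 count of the Y-linked gene Eif2s3y, against 705 to 1028 in the 40 other animals used, so results that rest on it are given without it as well. The 2 series differed in the level of several marker lists, blood among them. In VEH animals 17 astrocyte markers averaged 6.35 ± 0.11 (SD) log2 CPM, the count scaled to a fixed library size, in the 2-letter series. In the 1-letter series this was 6.80 ± 0.079 (SD). The average of 6 skeletal muscle markers in the 2-letter and 1-letter series was 2.55 and 1.13 in VEH, 1.18 and 1.05 in PB, and 2.56 and 1.23 in LEV. The summed level of 5 erythrocyte markers was 7558 to 18521 normalized counts in the 2-letter animals and 213.9 to 6685 in the 1-letter animals. The paper removed a batch effect without naming the animals of a batch, and the form of the code was the only batch-like label. The series was therefore a term of the model, and each comparison was also repeated within each series.

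The members' level was summarised per animal as the mean log2 CPM of the 92 tested members, which is the count scaled to a fixed library size. In the 2-letter series it was 6.20 ± 0.025 (SD, n = 6) in VEH, 6.19 ± 0.082 (SD, n = 6) in PB and 6.27 ± 0.043 (SD, n = 6) in LEV. In the 1-letter series it was 6.09 ± 0.11 (SD, n = 7) in VEH, 5.98 ± 0.099 (SD, n = 8) in PB and 6.11 ± 0.11 (SD, n = 8) in LEV. The groups overlapped in both series, and the animals of the 1-letter series were spread more widely within each treatment. PB 2, at 6.05, lay below every other animal of its series. The lowest animal of all was PB 7, at 5.86.

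**Figure D1:**
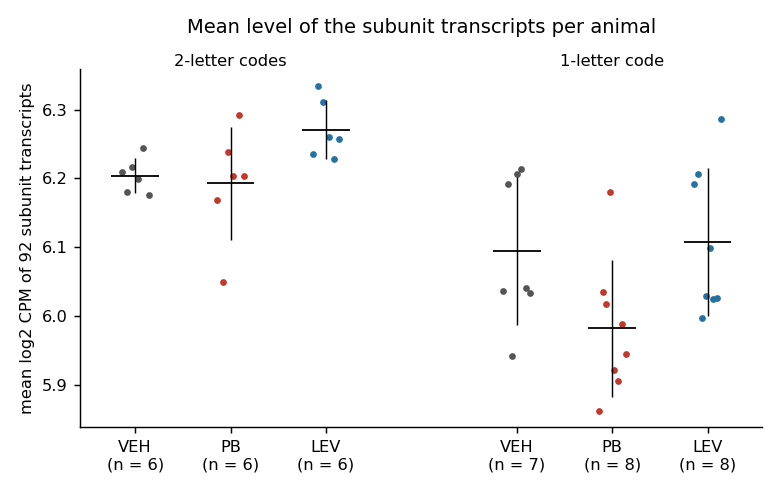
Mean log2 CPM (counts scaled to a fixed library size) of the 92 tested member transcripts in each of the 41 animals, by treatment and series. Points are animals, horizontal lines are group means and vertical lines are 1 SD. The 6 LEV animals of the 2-letter series lay between 6.23 and 6.33, and the 8 PB animals of the 1-letter series between 5.86 and 6.18.

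The first question was whether PB changed these transcripts against VEH. Over both series, 8 members were lower in PB and 0 were higher, of 92 tested (8.70%). A member passed when its adjusted p was under 0.05 in the quasi-likelihood test of edgeR, adjusted by Benjamini and Hochberg's method over the 13062 transcripts tested. By the same criterion 3.46% of all tested transcripts were lower and 1.93% higher. The 8 were Ndufs1, Ndufa10 and Ndufa10l1 of complex I, Sdha of complex II, Uqcrfs1 and Uqcrc2 of complex III, and Atp5f1a and Atp5f1b of complex V. None of the 8 fell by 20%, the study's fold threshold, which 0.26% of all transcripts passed downwards, and their falls ranged from 6.01 to 11.6%. The median log2 fold change of the members was -0.068, against 0.0046 over all tested transcripts, and 79 of 92 members (85.9%) lay below 0, against 48.1% of all. At an unadjusted p under 0.05, 26 members were lower and 1 was higher, against 10.4% and 9.79% of all transcripts. The 1 was the transcript NM_022607 of Ndufv3 (0.12, adjusted p = 0.223), an accessory subunit of complex I named after its value was seen. Its other transcript, NM_001101011, was at -0.13 (adjusted p = 0.459).

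Over all tested transcripts, the abundant ones passed as lower more often than the scarce ones. The passing members had a median of 2136 normalized counts and a median SE of 0.036 on the log2 scale, and the other 84 had 898.8 counts and 0.057. Among transcripts with a mean of at least 2000 counts, 4 of 15 members were lower, against 17.4% of all transcripts in that range. Between 1000 and 2000 counts 3 of 29 members passed, against 5.72% of all. From 500 to 1000 counts 1 of 23 members passed, against 3.58% of all, and below 500 counts 0 of 25, against 0.997% of all. In the highest range the members' median log2 fold change was -0.080 and that of all transcripts was -0.041.

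The number of lower members depended on single animals and on the model. It ranged from 5 to 9 when 1 animal at a time was left out, with 5 without PB 2 or without PB 7 and 6 without VEH 1. Ndufs1, Ndufa10l1, Uqcrfs1 and Atp5f1b passed in all 41 of these fits. The count was 4 with all 14 VEH animals and 4 without both VEH 1 and PB 2. With scaling by library totals alone it was 2, and the members' median log2 fold change was -0.044 in place of -0.068. The scaling factors of the main model ran from 0.999 to 1.022 in 1-letter VEH and from 1.026 to 1.050 in 1-letter PB animals. The count of lower members was 0 with the level of skeletal muscle markers as a covariate. It was 0 too with the level of neuron markers or of Pvalb as a covariate, both added after the results were seen. These levels themselves moved with the treatment, as described with the cell type markers, and their part in the result was not tested.

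**Figure D2:**
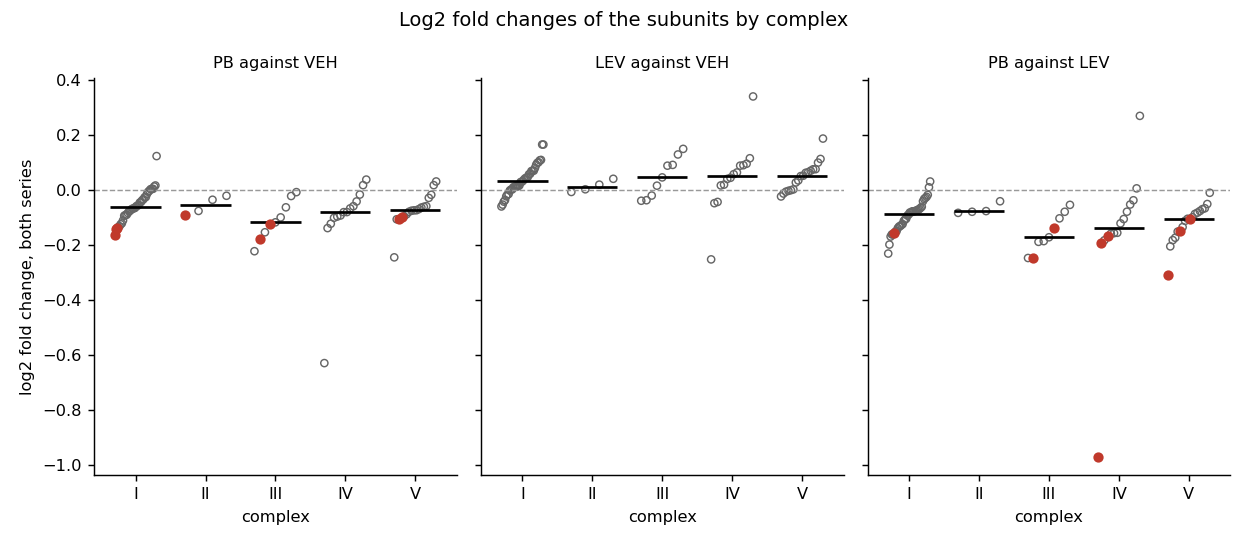
Log2 fold change over both series of each subunit transcript of complexes I to V, in the 3 comparisons. Each circle is 1 transcript, filled red where its adjusted p was under 0.05, and horizontal lines are complex medians. The red circles of complex IV in PB against LEV include Cox6a2, which was abundant enough to test only through VEH and LEV. In PB against VEH the medians lay between -0.12 for complex III and -0.055 for complex II, and in LEV against VEH all 5 medians lay above 0.

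In complex I, the NADH dehydrogenase, 30 of 36 tested transcripts lay below 0 in PB against VEH, with a median of -0.062. Ndufs1 is the largest subunit of the enzyme and holds iron-sulfur clusters of the electron path. Its normalized counts had a lowest, median and highest value of 1569.7, 1705 and 1919 in VEH, 1141, 1593 and 1628 in PB, and 1469, 1664 and 1878 in LEV. Within its own series each of the 14 PB animals was below the VEH average, and 10 were below every VEH animal of it, 2 of 6 in the 2-letter and 8 of 8 in the 1-letter series. Of the 14 LEV animals 9 were below that average, 6 in the 2-letter and 3 in the 1-letter series. Of the LEV animals 4 were below every VEH animal of their series, 3 in the 2-letter and 1 in the 1-letter series. In PB against VEH the log2 fold change was -0.16 ± 0.038 (SE), a fall of 10.8% (adjusted p = 0.00679).

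Ndufa10 is an accessory subunit of complex I, and Ndufa10l1 is listed as a separate gene of similar name, so reads may be shared between them. Ndufa10l1 had 870.4, 987.6 and 1076 counts as its lowest, median and highest VEH values, 786.3, 920.2 and 973.6 in PB, and 791, 947.3 and 1056 in LEV. Of the PB animals 13 were below the VEH average of their series, and the log2 fold change was -0.14 ± 0.037 (SE; adjusted p = 0.0176). Of the 14 LEV animals 12 were below that average too. Below every VEH animal of their series were 8 PB and 7 LEV animals. For Ndufa10 the values were 1192, 1270.3 and 1362 in VEH, 963, 1157.5 and 1316 in PB, and 1004, 1308 and 1427.5 in LEV. Here 12 PB animals were below their VEH mean and 8 below every VEH animal of their series, with a log2 fold change of -0.14 ± 0.041 (SE; adjusted p = 0.037). Ndufa10 passed in 30 of the 41 fits that left out 1 animal.

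The 7 nuclear core subunits of complex I, which carry the flavin and the iron-sulfur clusters or the quinone site, all lay below 0, with a median of -0.091. The 29 accessory transcripts had a median of -0.055, with 23 below 0. Ndufv1, the core subunit that binds NADH, had a log2 fold change of -0.091 ± 0.032 (SE; adjusted p = 0.0805) and did not pass. Ndufs4, an accessory subunit, was at -0.13 ± 0.051 (SE; adjusted p = 0.114). Ndufb9 was at -0.0020, and Ndufa1 at 0.0047. The Ndufaf assembly factors had a median of -0.018, with 5 of 8 below 0 and 0 passing.

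Complex II, succinate dehydrogenase, is also an enzyme of the TCA cycle and is encoded wholly in the nucleus. All 4 of its subunits lay below 0 in PB against VEH, with a median of -0.055, and 1 passed. Sdha, the flavoprotein that oxidises succinate, had 2212.5, 2404 and 2683 counts as its lowest, median and highest values in VEH, 2019.5, 2299 and 2435 in PB, and 2251, 2383 and 2578 in LEV. Of the PB animals 11 were below the VEH average of their series, 6 of 6 in the 2-letter and 5 of 8 in the 1-letter series. Of the LEV animals 9 were, 6 in the 2-letter and 3 in the 1-letter series. Below every VEH animal of their series were 9 PB and 4 LEV animals, and 3 LEV animals were above every one. The log2 fold change of Sdha in PB against VEH was -0.090 ± 0.027 (SE; adjusted p = 0.0445). It passed in 22 of the 41 fits that left out 1 animal but not in that without VEH 1. The iron-sulfur subunit Sdhb was at -0.021 and the membrane anchors Sdhc and Sdhd at -0.076 and -0.035.

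Complex III, the cytochrome bc1 complex, had the lowest median of the 5 complexes, -0.12, with 9 of 9 transcripts below 0. Uqcrfs1 encodes the Rieske iron-sulfur protein, which takes electrons from ubiquinol. Its lowest, median and highest counts were 1899.5, 1994 and 2296 in VEH, 1577, 1805 and 1974 in PB, and 1754, 1915 and 2319 in LEV. All 14 PB animals were below their VEH mean and 13 of them were below every VEH animal of their own series. Of the 14 LEV animals 7 were below every VEH animal of their series too, 1 in the 2-letter and 6 in the 1-letter series, and 3 were above every one. The log2 fold change was -0.18 ± 0.039 (SE), a fall of 11.6% (adjusted p = 0.00516).

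Uqcrc2 is a core protein on the matrix side of the complex. It had 2638, 2848 and 3319 counts as its lowest, median and highest values in VEH, 2358.5, 2629.9 and 2812 in PB, and 2630.3, 2770 and 3344 in LEV. Of the PB animals 13 were below their VEH mean and 8 below every VEH animal of their series. The log2 fold change was -0.12 ± 0.034 (SE; adjusted p = 0.0259), and it did not pass without VEH 11. The partner core protein Uqcrc1 was at -0.063, Uqcrb at -0.021 and Uqcr11 (NM_001126097) at -0.15, none of which passed.

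Complex IV, cytochrome c oxidase, had a median of -0.080, with 12 of 14 transcripts below 0 and 0 passing. Several of its subunits exist as isoform pairs with different tissue use. Cox4i1, the common form of subunit IV, had 4422, 4844 and 5914 counts as its lowest, median and highest values in VEH, 3936, 4798 and 5321 in PB, and 4396, 4949 and 5710.5 in LEV, and the groups overlapped. Its log2 fold change was -0.059 ± 0.037 (SE; adjusted p = 0.389), while Cox4i2, the form first described in lung, was at 0.018 ± 0.19 (SE) with 10.8 to 49.3 counts. Cox5a and Cox5b were at -0.080 and -0.092, Cox6a1 at -0.14, Cox7a2 at -0.016 and Cox8a at -0.12, and none of these passed.

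Cox6a2 is the form of subunit VIa of heart and skeletal muscle, and it is also known from fast-spiking interneurons. It was scarce, with 3.02, 9.21 and 19 normalized counts as its lowest, median and highest values in VEH, 1.97, 6.21 and 8.99 in PB, and 3.92, 11.1 and 22.9 in LEV. No PB animal exceeded 8.99, but the 3 ranges overlapped. Its log2 fold change in PB against VEH was -0.63 ± 0.26 (SE; adjusted p = 0.158).

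Complex V had a median of -0.073, with 16 of 18 transcripts below 0. Atp5f1b encodes the catalytic beta subunit of the F1 head. It had 16746, 18486 and 19308.5 counts as its lowest, median and highest values in VEH, 14438, 17376 and 17898 in PB, and 17017, 18467.5 and 19889 in LEV. Each of the 14 PB animals was below the VEH average of its series, PB 2 furthest, and 8 were below every VEH animal of their series. The log2 fold change was -0.10 ± 0.028 (SE), a fall of 6.93% (adjusted p = 0.023).

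Atp5f1a encodes the alpha subunit that alternates with beta around the F1 head. Its lowest, median and highest values were 8521, 9655 and 10536 in VEH, 7960.4, 8964 and 9537.5 in PB, and 8844, 9432 and 10051 in LEV. Here too all 14 PB animals were below their VEH mean, 5 of them below every VEH animal of their series. The log2 fold change was -0.099 ± 0.029 (SE; adjusted p = 0.0326), and it passed in 32 of the 41 fits that left out 1 animal but not in that without VEH 1. Atp5f1c, the gamma subunit of the rotating shaft, was at -0.063 and did not pass. The 3 genes of the c-ring, which proton flow turns, were at -0.058 for Atp5mc1, 0.018 for Atp5mc2 and -0.069 for the main transcript of Atp5mc3 (NM_001361401), while its scarcer transcript NM_001361400 was at -0.24 ± 0.085 (SE; adjusted p = 0.0807).

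**Figure D3:**
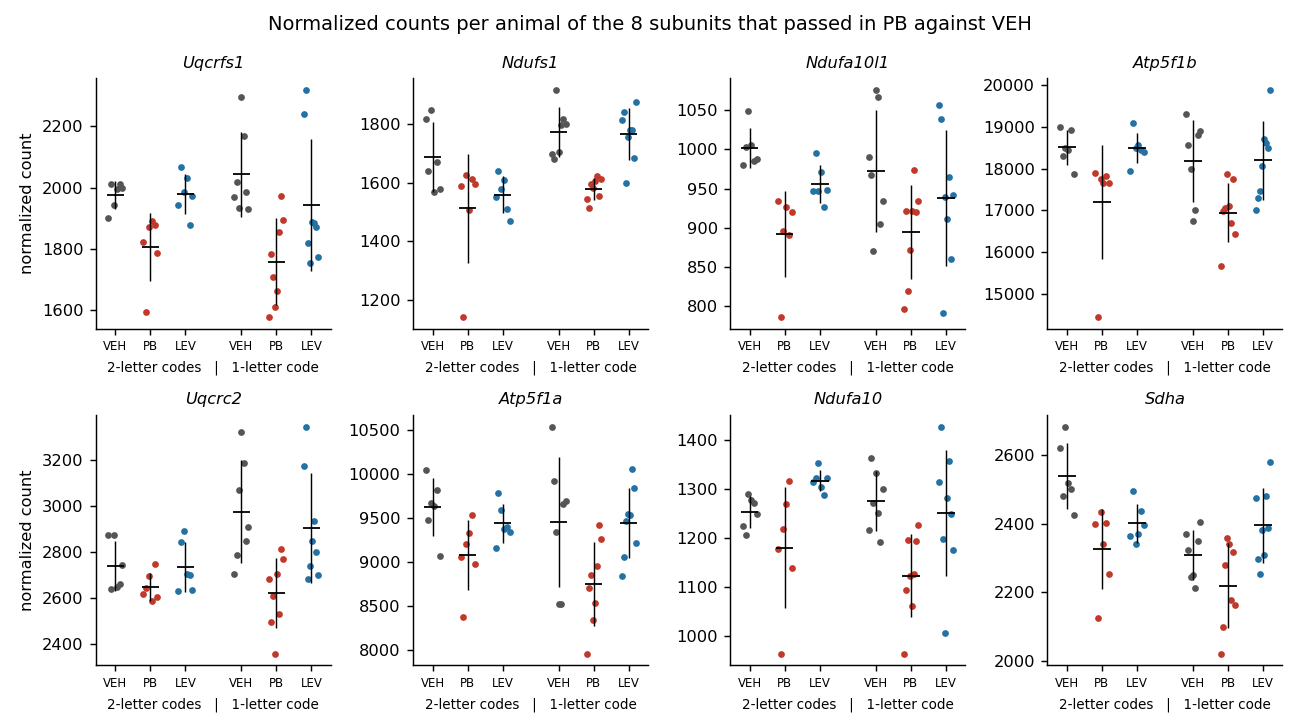
Normalized counts in each animal of the 8 members that were lower in PB than in VEH, by treatment and series. Points are animals, horizontal lines are group means and vertical lines are 1 SD, and the axes do not start at 0. Each PB animal was below the VEH average of its series for Uqcrfs1, Ndufs1, Atp5f1b and Atp5f1a.

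The 8 members lie on 6 chromosomes of rn6. In the deposited coordinates Sdha spans chr1:31545631-31570602, Uqcrc2 chr1:190555177-190585741, Ndufa10l1 chr6:62796951-62798385, Atp5f1b chr7:2504708-2511749, Ndufs1 chr9:69919865-69953183, Ndufa10 chr9:99617051-99651814, Uqcrfs1 chr17:35677984-35682262 and Atp5f1a chr18:74156553-74164491. These are whole transcribed spans, exons and introns together.

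Promoters of oxidative phosphorylation genes are known for sites of the factors NRF1, GABPA (an ETS protein), YY1 and the oestrogen-related receptors (ERR). RefSeq promoters (250 bases before to 50 after the start, assembly GRCr8) were matched to 77 of the 88 member genes. Searched on both strands, the NRF1 core GCGCATGC was in 10 of them (13.0%, against 2.66% of all 27457 promoters and 4.82% of the 9635 promoters of tested transcripts), the ETS motif CCGGAAGT in 8 (10.4%, against 4.01% and 7.82%), the YY1 motif AAGATGGC in 16 (20.8%, against 3.44% and 5.29%) and the ERR motif CAAGGTCA in 4 (5.19%, against 1.48% and 0.861%). Any of the 4 was in 32 member promoters (41.6%), against 10.8% of all promoters and 17.3% of those of tested transcripts. Of the 7 passing members with a promoter, 2 held any of the 4 motifs, in both cases the ETS motif on the other strand (Ndufs1 and Atp5f1a). The promoters of 3 members that lay below their VEH mean in all 14 PB animals are shown, 1 each from complexes I, III and V, 5′ to 3′ on the gene's strand, with a motif match in capitals. Ndufs1 is at chr9:72073556-72073855 on the minus strand, Uqcrfs1 at chr17:34186352-34186651 on the plus strand and Atp5f1b at chr7:1099808-1100107 on the plus strand of GRCr8.
Ndufs1: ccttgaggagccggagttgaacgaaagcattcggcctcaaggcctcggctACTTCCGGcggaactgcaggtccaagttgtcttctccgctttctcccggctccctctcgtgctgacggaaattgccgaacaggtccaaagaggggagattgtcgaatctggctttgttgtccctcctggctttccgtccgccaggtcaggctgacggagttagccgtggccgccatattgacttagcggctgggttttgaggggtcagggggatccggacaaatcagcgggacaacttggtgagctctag
Uqcrfs1: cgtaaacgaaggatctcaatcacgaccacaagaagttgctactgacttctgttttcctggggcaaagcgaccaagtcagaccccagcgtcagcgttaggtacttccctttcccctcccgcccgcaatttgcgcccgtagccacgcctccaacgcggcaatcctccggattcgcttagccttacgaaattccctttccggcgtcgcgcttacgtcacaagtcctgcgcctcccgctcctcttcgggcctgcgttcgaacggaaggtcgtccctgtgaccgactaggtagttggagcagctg
Atp5f1b: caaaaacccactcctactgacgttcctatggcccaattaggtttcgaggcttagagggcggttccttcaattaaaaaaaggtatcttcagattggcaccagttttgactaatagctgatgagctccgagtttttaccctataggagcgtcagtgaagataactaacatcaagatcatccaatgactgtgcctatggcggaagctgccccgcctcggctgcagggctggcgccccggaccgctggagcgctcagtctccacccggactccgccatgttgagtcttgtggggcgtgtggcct
The capitals in the Ndufs1 promoter mark ACTTCCGG, the ETS motif read on the other strand, 200 bases before the start. The windows of Uqcrfs1 and Atp5f1b hold none of the 4 strings of letters. A match is a string of letters, and no binding was measured.

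LEV was compared with the same VEH animals. No member passed in either direction, and of all 13062 transcripts 0.00766% passed (1 transcript, higher in LEV). At an unadjusted p under 0.05, 0 members were lower and 2 were higher, against 2.89% and 2.96% of all transcripts, and DESeq2 also passed 0 members. The 2 were the rows of Ndufa1, an accessory subunit of complex I, which stand for 1 set of reads. Ndufa1 had 208, 291.8 and 336.7 counts as its lowest, median and highest values in VEH and 235.6, 299.4 and 381.9 in LEV, with overlapping groups and a log2 fold change of 0.17 ± 0.072 (SE; adjusted p = 0.806). The members' median was 0.038, against 3e-04 over all transcripts, and 24 of 92 (26.1%) lay below 0, against 49.8% of all.

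The complex medians lay close together in this comparison. They were 0.032 for complex I, 0.011 for complex II, 0.046 for complex III, 0.051 for complex IV and 0.052 for complex V. The next members by p were Cox7c (0.12 ± 0.061, SE), Ndufb9 (0.069 ± 0.037, SE) and Ndufa13 (0.11 ± 0.061, SE). Of the members lower in PB, Uqcrfs1 was at -0.039 in LEV, Ndufs1 at -0.053, Ndufa10l1 at -0.060, Ndufa10 at 0.017, Sdha at -0.0067, Uqcrc2 at -0.020, Atp5f1a at -0.013 and Atp5f1b at -0.0002. Of the 14 LEV animals, 12 were below the VEH average of their series for Ndufa10l1, 10 for Uqcrc2 and 9 each for Ndufs1, Sdha and Uqcrfs1. For Atp5f1a and Atp5f1b 8 were, and for Ndufa10 4. The PB and LEV values share the VEH animals.

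The direct comparison of the drugs gave 9 members lower in PB than in LEV and 0 higher, of 92 (9.78%), against 2.78% of all transcripts lower and 1.67% higher. The 9 include Cox6a2, which was abundant enough to test only through VEH and LEV, so its call gives no support to a difference. The members' median was -0.091, against 0.0033 over all transcripts, and 85 members (92.4%) lay below 0, against 48.7% of all. Unadjusted, 48 members were lower and 0 higher, against 10.2% and 9.45% of all transcripts. All 9 transcripts of complex III and all 18 of complex V lay below 0, with medians of -0.17 and -0.10, and complexes I, II and IV had medians of -0.085, -0.078 and -0.14. The count ranged from 2, without PB 7, to 16, without PB 5, and it was 4 without LEV 2, when 1 animal at a time was left out. It was 15 in DESeq2, 2 with all 14 VEH animals in the model, and 0 with the muscle, neuron or Pvalb level as a covariate. In the fit of PB and LEV alone, where Cox6a2 was not tested, it was 9, with 8 of them shared with the main fit. The PB animals of this comparison are those set against VEH above.

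Ndufa10 passed in all 41 fits that left out 1 animal, with a log2 fold change of -0.16 ± 0.041 (SE; adjusted p = 0.0205). Uqcrfs1 was at -0.14 ± 0.038 (SE; adjusted p = 0.0299) and Atp5f1b at -0.10 ± 0.028 (SE; adjusted p = 0.0248). For these 3 the VEH, PB and LEV counts are given above, and their LEV medians were close to those of VEH or above them, except for Uqcrfs1, whose LEV median of 1915 lay between PB and VEH.

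Small subunits of complexes III, IV and V made up most of the rest. Uqcr11 (NM_001126097), the smallest subunit of complex III, had 1468, 1931 and 2479 counts as its lowest, median and highest values in LEV and 1059, 1519 and 2287 in PB, with a log2 fold change of -0.25 ± 0.066 (SE; adjusted p = 0.0255). Cox8a of complex IV had 2978, 3452 and 3918 in LEV and 2344, 2992 and 3814 in PB, at -0.17 ± 0.045 (SE; adjusted p = 0.0258). Cox7b had 1220.1, 1402 and 1828.5 in LEV and 1027, 1258.5 and 1551 in PB, at -0.19 ± 0.056 (SE; adjusted p = 0.0371). In all 3 the ranges overlapped, and 13 of 14 PB animals were below the LEV average of their series for Uqcr11 and Cox7b and 11 of 14 for Cox8a. The other transcript of Uqcr11, NM_001287109, did not pass, with 10 of 14 PB animals below that average. Atp5mc3 NM_001361400, the scarcer transcript of a c-ring gene, had 216.1, 327.6 and 401.2 counts in LEV and 179.1, 232.9 and 333 in PB, at -0.31 ± 0.084 (SE; adjusted p = 0.0255). The gene's main transcript, NM_001361401, was at -0.10 (adjusted p = 0.108) and did not pass. Atp5f1d, the delta subunit of the F1 shaft, was outside the naming rule and is named because it passed, at -0.15 ± 0.045 (SE; adjusted p = 0.0456). Leaving out 1 animal, Atp5f1d passed in 21 of 41 fits, Cox7b in 30, Uqcrfs1 in 35 and Atp5f1b in 39. Uqcr11 (NM_001126097), Cox8a and Atp5mc3 NM_001361400 passed in 40 each.

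Cox6a2 was the 1 passing member that fell by 20% or more in this comparison, against 0.299% of all transcripts, at -0.97 ± 0.25 (SE; adjusted p = 0.0209), on 2 to 22 raw counts per animal. It was abundant enough to test only through VEH and LEV: 5 VEH, 8 LEV and 0 PB animals were over the limit of the filter. It could be tested in 33 of the 41 fits that left out 1 animal and not in the fit of PB and LEV alone, so its call gives no support to a difference. Other muscle transcripts moved in the same animals. Ckm, the muscle creatine kinase, had 22.3 to 44.3 normalized counts in the 2-letter VEH animals and 13.5 to 46.9 in the 2-letter LEV animals, and it was at 0 in 5 of 6 2-letter PB animals. In the 1-letter series Ckm was at 0 in 7 of 7 VEH, 8 of 8 PB and 6 of 8 LEV animals. There Cox6a2 had 3.02, 5.72 and 19 counts in VEH, 2.97, 6.56 and 8.02 in PB, and 6.92, 10.4 and 16.3 in LEV, and it was too scarce to be tested. Pvalb, the parvalbumin gene of fast-spiking interneurons and of fast muscle, was also lower in PB than in LEV, at -0.91 (adjusted p = 0.0114). What part either had in the Cox6a2 value was not tested.

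Within the 2-letter series 0 members passed in PB against VEH, against 0.282% of all transcripts lower and 0.206% higher. At an unadjusted p under 0.05, 6 members were lower and 3 higher, against 6.49% and 5.6% of all transcripts. The 3 were Ndufv3 NM_022607 (0.22), Ndufb4 (0.12) and the assembly factor Ndufaf8 (0.18), named after their values were seen. DESeq2 passed 3 (Uqcrfs1, Sdha and Ndufa10l1). The members' median was 0.0003, against 0.011 over all transcripts, with 45 of 92 (48.9%) below 0, against 45.9% of all. Complex medians were -0.0088 for I, -0.032 for II, -0.048 for III, 0.029 for IV and 0.024 for V. The smallest p belonged to Ndufa10l1 (-0.17 ± 0.039, SE; adjusted p = 0.0632), followed by Sdha at -0.13 and Uqcrfs1 at -0.13. The median's sign was not stable, and it ranged from -0.023 to 0.024 when 1 animal was left out.

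Within the 1-letter series 4 members were lower in PB than in VEH (4.40% of 91) and 0 higher, against 2.35% and 1.74% of all transcripts. Unadjusted, 29 were lower and 0 higher, against 10.1% and 9.38% of all. Ndufs1 was at -0.17 ± 0.037 (SE; adjusted p = 0.0143), with 1682, 1797 and 1919 counts in VEH and 1515, 1589 and 1624 in PB. The Ndufs1 groups did not overlap in this series. Atp5mc3 NM_001361400 was at -0.44 ± 0.12 (SE; adjusted p = 0.0357) and alone of the 4 fell by 20% or more, as did 0.467% of all transcripts, with 197.8, 282.4 and 336.6 counts in VEH and 179.1, 205 and 246.9 in PB. The main transcript of Atp5mc3, NM_001361401, was not among the 4. Uqcrfs1 was at -0.22 ± 0.062 (SE; adjusted p = 0.046), and Uqcrc2 at -0.18 ± 0.052 (SE; adjusted p = 0.0473). Ndufs1 passed in all 23 fits that left out 1 animal, while the count of members ranged from 1 to 5 (1 without VEH 11, VEH 12, VEH 13, PB 7, PB 9 or PB 11, and 2 without VEH 9, VEH 14, PB 8, PB 10, LEV 11, LEV 12 or LEV 13). With VEH 7, the animal left out by the study, it was 0.

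The median of the 91 members in the 1-letter series was -0.11, against 0.0035 over all transcripts, with 81 (89.0%) below 0, against 49.2% of all. Complex medians were -0.11 for I, -0.062 for II, -0.18 for III, -0.13 for IV and -0.13 for V. In this series Ckm was at 0 in every VEH and PB animal, and the tested muscle markers numbered 4, with a median of 0.016 and 1 lower. Neuron markers had a median of -0.18 there, with 14 of 14 below 0 and 3 lower.

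LEV against VEH gave 0 passing members within each series. In the 2-letter series 2.13% of all transcripts were lower and 0.511% higher, and the members' median was 0.071, with 9 of 92 (9.78%) below 0, against 45.2% of all. There 0 members were lower and 14 higher at an unadjusted p under 0.05, against 8.32% and 7.16% of all transcripts. The smallest p there belonged to Atp5if1 (0.13 ± 0.040, SE; adjusted p = 0.0969), Ndufb9 (0.14) and Ndufab1 (0.12), the acyl carrier protein of complex I. In the 1-letter series 0.0383% of all transcripts were lower and 0.00765% higher, and the median was 0.0064, with 42 of 91 (46.2%) below 0, against 50.5% of all. Unadjusted, 3 members were lower (Cox7a2l at -0.15, Cox4i2 at -0.54 and Cox5a at -0.12) and 0 higher, against 2.1% and 2.89% of all. DESeq2 passed 0 members in either series.

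PB against LEV gave 0 passing members in the 2-letter series, against 0.389% of all transcripts lower and 0.229% higher, and 4 in DESeq2. The median was -0.063, with 81 of 92 (88.0%) below 0 against 48.7% of all, and 20 members were lower and 0 higher unadjusted, against 7.87% and 7.14% of all. In the 1-letter series 1 passed, Ndufs1, lower in PB, against 0.543% of all transcripts lower and 0.467% higher. It was at -0.16 ± 0.036 (SE; adjusted p = 0.0273), with 1601, 1781 and 1878 counts in LEV, 1 of whose 8 animals reached into the PB range. It did not pass without PB 7, LEV 7, LEV 11, LEV 12 or LEV 14. The median there was -0.12, with 81 of 91 below 0 against 50.7% of all, and 32 members were lower and 1 higher unadjusted, against 7.74% and 7.28% of all. The 1 was Cox4i2, at 0.66 ± 0.23 (SE; adjusted p = 0.169).

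**Figure D4:**
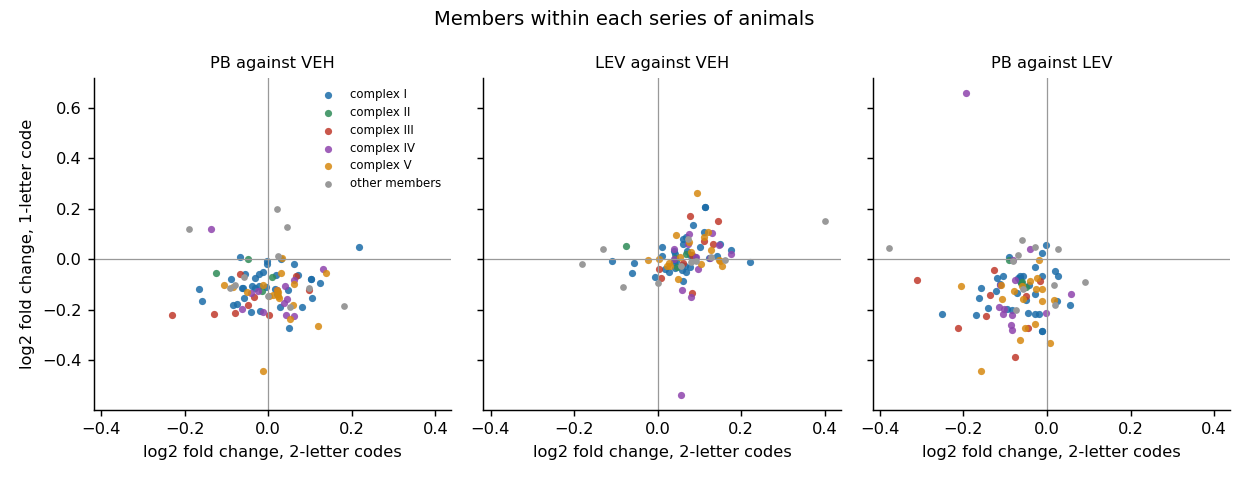
Log2 fold change of each of 91 members in the 1-letter series against that in the 2-letter series, for the 3 comparisons, coloured by complex. Grey lines mark 0. In PB against VEH 41 members lay above 0 in the 2-letter and below 0 in the 1-letter series, and 40 lay below 0 in both. These counts were not made over all transcripts.

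Whether the series differed was tested directly as the interaction of treatment and series. No member passed in any of the 3 comparisons, while 9 (0.0689%), 110 (0.842%) and 3 (0.023%) of all 13062 transcripts did for PB against VEH, LEV against VEH and PB against LEV. For PB against VEH, 13 members were lower in the 1-letter series at an unadjusted p under 0.05 and 0 higher, against 4.96% and 6.14% of all transcripts. The median difference was -0.11, against -0.014 over all transcripts. The smallest p belonged to Atp5mc3 NM_001361400 (-0.43, adjusted p = 0.298), Cox7b (-0.29) and Atp5f1e (-0.38), the epsilon subunit of ATP synthase. For LEV against VEH these were Cox7a2l (-0.22), Sdha (0.13) and Cox5a (-0.17), and for PB against LEV Cox4i2 (0.84), Atp5mg (-0.35) and Ndufa1 (-0.28). In PB against VEH 79 of the 91 members had the lower value in the 1-letter series, and in LEV against VEH 70. These counts, from the separate fits of each series, were not made over all transcripts. They are therefore not read as particular to the members.

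Other mitochondrial and metabolic genes were followed in PB against VEH with lists chosen by function. Beside them, 3.46% of all tested transcripts were lower and 1.93% higher. Among transcripts with a mean of at least 2000 counts 17.4% were lower, and below 500 counts 0.997%. The lists were not compared with all transcripts within ranges of counts. Of 23 transcripts of the TCA cycle and pyruvate dehydrogenase 8 were lower and 0 higher, with a median of -0.10. They included Pdha1 at -0.15 and Pdhb at -0.15, subunits of pyruvate dehydrogenase, and Sucla2 at -0.15, a subunit of succinyl-CoA ligase. Of 27 glycolytic transcripts 12 were lower, with a median of -0.099, among them Pfkm (-0.15), Pgk1 (-0.13) and Pgam1 (-0.17). Of 25 electron carriers and exchangers 5 were lower, with a median of -0.094, including the mitochondrial creatine kinase Ckmt1 (-0.24), the phosphate carrier Slc25a3 (-0.12) and the ADP/ATP carrier Slc25a5 (-0.10). The V-ATPase, a proton pump of acidic organelles and synaptic vesicles, had 9 of 20 lower, a median of -0.12 and Atp6v1g2 at -0.27, Atp6v0d1 at -0.20 and Atp6v1b2 at -0.19.

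Lists for the making of the complexes were followed in the same way, beside the same shares of all transcripts. Of 33 further assembly factors 1 was lower, Tmem70 (-0.18, adjusted p = 0.00391), which helps to assemble the ATP synthase, and the median was -0.039. The next by p, Atpaf1 at -0.17 and Cox20 at 0.16, did not pass. Of 77 mitochondrial ribosomal transcripts 5 were lower, with a median of -0.034, and of 25 genes of mitochondrial DNA maintenance and transcription 0 passed, with a median of 0.0057. Gabpb1 (0.16), Pprc1 (0.11) and Tfb2m (-0.11) had the smallest p of that list. The cytosolic ribosome, the counterpart outside the mitochondrion, had 14 of 97 transcripts higher, 0 lower and a median of 0.13, and the proteasome 0 of 39 passing at a median of -0.034. In LEV against VEH 0 transcripts passed in any of these 9 lists, and of all 13062 transcripts 1 passed.

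**Figure D5:**
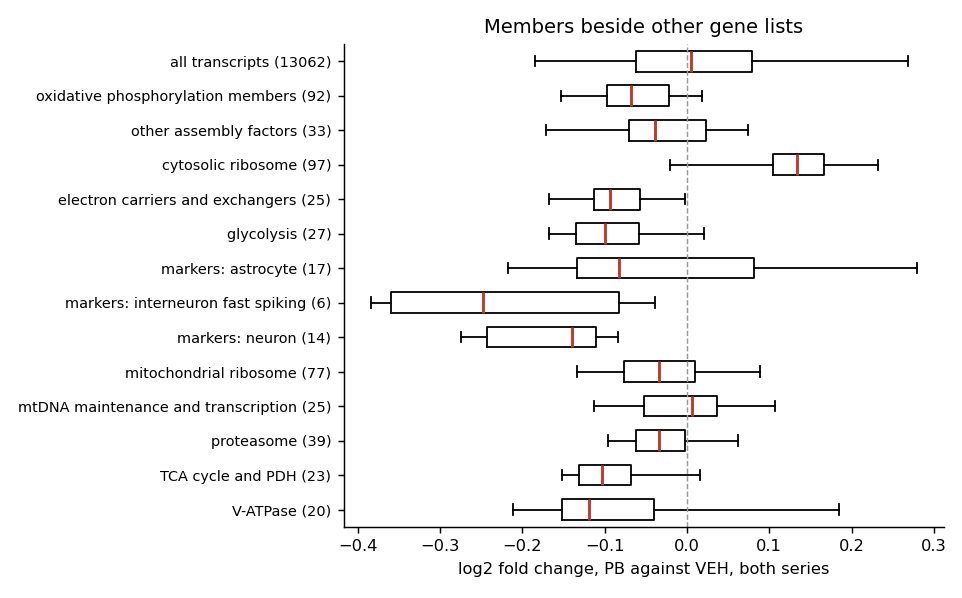
Log2 fold changes in PB against VEH over both series of the 92 tested members, of all 13062 tested transcripts and of the other lists, with the number of transcripts in brackets. Boxes span the quartiles, red lines are medians and whiskers run from the 5th to the 95th percentile. The medians of the TCA cycle (-0.10), glycolysis (-0.099) and V-ATPase (-0.12) lay lower than that of the members (-0.068), and that of the cytosolic ribosome (0.13) lay above 0.

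Markers of cell types moved in the same animals, beside 3.46% of all tested transcripts lower and 1.93% higher in PB against VEH. All 14 neuron markers lay below 0 in PB against VEH, with a median of -0.14 and 4 lower, and Slc32a1 (-0.27), Nefl (-0.29) and Camk2a (-0.26) had the smallest p. Their summed level was 95653 to 102834 normalized counts in VEH, 73908 to 96293 in PB and 96120 to 101992 in LEV in the 2-letter series, and 97415 to 103774 in VEH, 79710 to 96837 in PB and 89165 to 105866 in LEV in the 1-letter series. None of the 14 was at 0. An interneuron list of 6 transcripts held Pvalb, Kcnc1, Kcnc2 and Erbb4, listed for fast-spiking cells, and Sst, which labels somatostatin interneurons. Of the 6, 4 were lower, with a median of -0.25, including Sst (-0.38), Kcnc1 (-0.21) and Pvalb (-0.83 ± 0.22, SE; adjusted p = 0.0187). With the neuron level as a covariate the members' median was -0.072 and 21 of all transcripts passed. With Pvalb as a covariate it was 0.023 and 25 passed. The part of neuron number or neuron RNA in the members' values was not tested.

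Of 20 listed skeletal muscle transcripts 6 were abundant enough to test, and 4 were lower in PB than in VEH, including Atp2a1 (-2.46), Myh4 (-2.06), Acta1 (-0.44) and Pvalb. A scarce transcript could enter the test through VEH or LEV alone, as Cox6a2 did, and this was not examined for the 6. The summed level of the muscle list was 484 to 641 counts in VEH, 212 to 421 in PB and 419 to 799.9 in LEV in the 2-letter series. In the 1-letter series it was 225 to 349 in VEH, 186 to 339 in PB and 238 to 344 in LEV. With the muscle level as a covariate the members' median was -0.062 and 217 of all transcripts passed in place of 704. With Pvalb taken out of that list, an alternative added after the results were seen, 3 members passed (Ndufs1, Uqcrc2 and Uqcrfs1), the median was -0.079 and 483 of all transcripts passed. Astrocyte markers had 2 of 17 lower and 1 higher, oligodendrocyte markers 1 of 13 lower, and microglial markers 1 of 6 higher (Cd68, 0.97). Choroid plexus markers passed in 0 of 9 at a median of 0.62, erythrocyte markers in 0 of 5 at -0.43 and endothelial markers in 0 of 5 at -0.13. With the choroid plexus level as a covariate 8 members were lower.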

How the data were processed

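Total RNA was extracted from the hippocampus of 42 pups, and the paper describes the sequencing as mRNA sequencing. The submitters' notes name STAR 2.7.3a, Partek, DESeq2 and the rn6 assembly, and the authors deposited estimated counts per transcript, of which 13.7% were not whole. These expected counts were rounded, and a normalized count is a count divided by the animal's effective library size and multiplied by the mean effective size over animals. A second deposited table, with the authors' fold changes and p-values of their own comparisons, was not used. VEH animal 7 was left out, as in the study, and entered 1 alternative.

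Counts were fitted over all 3 groups in edgeR 4.0.16 (R 4.3.3, limma 3.58.1) with TMM factors (0.9295 to 1.05), filterByExpr, terms for group and series, and the quasi-likelihood test, with Benjamini-Hochberg adjustment over all transcripts of a comparison (13062 over both series, 13112 in the 2-letter and 13065 in the 1-letter series). Each series was also fitted alone, and a further model held the interaction. P-values measure the spread between animals, which came from different litters within a group. The SE of a log2 fold change was derived from the test, as its absolute value divided by the square root of the F statistic. An adjusted p under 0.05 was called passing, and the study's fold threshold, a fall of 20%, was noted beside it. Scripts were tested on simulated data. Alternatives were DESeq2 1.42.0, other scalings and filters, other model terms, marker levels as covariates and leaving out each animal.

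The members and the gene lists were chosen with earlier results of these data known. Members named were a fixed set of core subunits and tissue isoforms, the 5 with the smallest p in each comparison over both series, and the 3 with the smallest p within each series and for the difference between series; from each other list the 3 with the smallest p were named. The replicate numbers were not taken as pairs, since the labels do not tie a number to a litter. The depth of 9499492 to 14488134 counts per animal leaves scarce members imprecise: the SE reached 0.31 on the log2 scale.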

Additional observations from a re-analysis of the deposited data

Results flagged for a closer look

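For 40 member transcripts and the members' mean level, 41 measures in 6 groups of animals (3 treatments in 2 series), 246 groups of values were large enough for a check of the highest and the lowest animal, and in 25 (10.2%) 1 animal stood apart from the rest. Chance gives about 1 in 20 such groups, and members measured in the same animals are not independent. Values are normalized counts.

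In the 2-letter series PB 2 stood low for Atp5f1b (14438, next 17644), Ndufs1 (1141, next 1508.5), Uqcrfs1 (1595, next 1788) and Ndufa10l1 (786.3, next 891.1). All 4 are among the members lower in PB than in VEH, and without PB 2 the count of such members was 5. In the same series PB 5 stood high for Cox7c (2728), VEH 3 for Ndufa10l1 (1048), LEV 2 for Sdhc (1892), and LEV 5 stood low for Uqcrb (388).

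In the 1-letter series VEH 9 stood high for Cox4i1 (5914), Cox8a (3893), Cox7a2l (1917), Ndufb9 (1401) and Cox7a2 (296.3). PB 10 stood high for Cox7c (2691), Cox5b (2116), Uqcr11 (1893) and Atp5if1 (1817). LEV 14 stood high for Cox8a (3877), Uqcr11 (2409), Ndufa1 (381.9) and Cox7a2 (369). The others were LEV 12 for Ndufv1 (1824), LEV 11 for Cox5a (1188) and PB 8 for Cox4i2 (49.3), all high, and PB 7 for Sdhd (1290.1), low.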

How the results depend on the processing

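The number of members lower in PB than in VEH over both series (8) was 8 in DESeq2 and 6 with upper quartile factors. It was 2 at an adjusted p under 0.01 or with library totals, 0 with a fall of 20% as well, 5 without the series term, 4 with all 14 VEH animals and 5 with only the 2 groups compared. It was 0 with the muscle, neuron or Pvalb level as covariate, 3 with muscle without Pvalb, and 4 without both VEH 1 and PB 2 (the neuron, Pvalb and last 2 alternatives were chosen after seeing the data). Leaving out 1 animal gave 5 to 9. PB against LEV (9, Cox6a2 among them) gave 15 in DESeq2 with or without its outlier handling, 0 at 0.01 and 1 with that fall (Cox6a2). It gave 9 with only the 2 groups compared, 8 of them shared and Cox6a2 not tested. Without the series term it gave 4, and with all 14 VEH animals 2. It gave 0 with the muscle, neuron or Pvalb level, 4 with muscle without Pvalb, and 2 to 16 leaving out 1 animal. LEV against VEH stayed at 0 in the alternatives run over both series. Within the 2-letter series DESeq2 gave 3 (PB against VEH) and 4 (PB against LEV), and LEV against VEH gave 0 to 1 leaving out 1 animal (1 without PB 2 or LEV 5). Within the 1-letter series PB against VEH (4) gave 7 in 1 model of treatment by series, 0 with all 14 VEH animals and 1 to 5 leaving out 1 animal, and PB against LEV (1) gave 4 in DESeq2, 3 in the 1 model, 0 with all 14 VEH animals and 0 to 2. The differences between series stayed at 0 in the alternatives run. The cause was not tested for any of these.

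No pairing by replicate number was detected: deviations of same-numbered animals correlated at -0.33 to 0.33, over 0.1 in 10 of 40 pairs, and 7 of 41 animals correlated best with their own number. Such correlations over all transcripts cannot tell whether a number marks a litter. With the number as a block, 4 members passed in PB against VEH over both series, 6 in PB against LEV and 2 in PB against VEH of the 1-letter series.

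The members' median kept its sign over both series in all alternatives, except PB against VEH with the Pvalb level as covariate (0.023). Leaving out 1 animal it was -0.084 to -0.055 for PB against VEH, 0.019 to 0.050 for LEV against VEH and -0.11 to -0.080 for PB against LEV.

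In the alternatives run, signs changed for named members that had not passed in the comparison concerned. For LEV against VEH, Atp5f1b (-0.0002) was 0.0008 in DESeq2 in both modes, 0.0009 with its size factors, 0.0007 with upper quartile factors, 0.014 with library totals, 0.0082 with the block and 0.011 with all 14 VEH animals. For PB against VEH, Ndufb9 (-0.0020) was 0.0029 with upper quartile factors, 0.022 with library totals, 0.0047 with series by treatment, 0.0084 with the block and 0.0036 with the choroid plexus level. Library totals gave Sdhb 0.0036, Uqcrb 0.0028 and Cox7a2 0.0074 for PB against VEH, Sdha 0.0070 and Atp5f1a 0.0015 for LEV against VEH, and Atp5mc2 0.0006 for PB against LEV. All 14 VEH animals gave Cox4i2 -0.029, Cox7a2 0.037, Uqcrb 0.065 and Sdhd 0.0093 for PB against VEH, and Ndufv1 -0.027, Uqcrc1 -0.042 and Uqcrc2 0.020 for LEV against VEH. Series by treatment gave Cox4i2 -0.0092 and the block Cox7a2 0.0066 for PB against VEH. The muscle level gave Cox7a2 0.012 and Ndufa1 -0.034 for PB against VEH and Ndufv1 -0.0002 for LEV against VEH. The choroid plexus level gave Ndufv1 -0.0001 and Sdhc -0.0084 for LEV against VEH. The neuron level gave Atp5mc1 0.019, Uqcrc1 0.0021, Ndufa1 -0.022 and Ndufb9 0.015 for PB against VEH, Atp5f1b 0.0010 for LEV against VEH and Cox5a 0.0015 for PB against LEV. The muscle level without Pvalb gave Ndufa1 -0.052 for PB against VEH and Cox7a2l -0.0031 for PB against LEV. Without both VEH 1 and PB 2, Cox4i2 was -0.033 and Ndufb9 0.0004 for PB against VEH, and Sdha 0.0023 and Atp5f1b 0.0048 for LEV against VEH.

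The Pvalb level as covariate turned the sign of more of them than the others. For PB against VEH it gave Uqcrb 0.15, Cox7a2 0.13, Atp5f1e 0.10, Atp5mc1 0.073, Cox7c 0.066, Ndufb9 0.065, Cox7b 0.049, Atp5if1 0.043, Cox5b 0.041, Sdhd 0.031, Uqcr11 0.025, Cox7a2l 0.024, Atp5mg 0.020, Ndufa13 0.018, Ndufa4 0.013, Cox5a 0.0083, Ndufab1 0.0024, Atp5mc3 NM_001361401 0.0012 and Cox4i1 0.0005. For LEV against VEH it gave Ndufv1 -0.0025, Atp5f1c -0.0023, Sdhc -0.0016 and Ndufa4 -0.0005, and for PB against LEV Cox5a 0.059, Atp5f1e 0.055, Cox7a2 0.055, Ndufa4 0.014, Atp5mc1 0.011, Uqcrb 0.0072, Ndufb9 0.0024 and Atp5mc2 0.0006.

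Leaving out 1 animal, values for LEV against VEH ran from -0.025 to 0.0020 for Atp5f1a, -0.011 to 0.0082 for Atp5f1b, -0.015 to 0.013 for Atp5f1c, -0.011 to 0.039 for Cox6a1, -0.0087 to 0.032 for Ndufa4, -0.011 to 0.051 for Ndufs4, -0.010 to 0.013 for Ndufv1, -0.018 to 0.0045 for Sdha and -0.011 to 0.016 for Sdhc. For PB against VEH they ran from -0.091 to 0.085 for Cox4i2, -0.072 to 0.024 for Cox7a2, -0.027 to 0.033 for Ndufa1, -0.015 to 0.027 for Ndufb9 and -0.092 to 0.027 for Uqcrb. For PB against LEV they ran from -0.032 to 0.0058 for Atp5mc2 and -0.012 to 0.020 for Cox7a2l.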
